A study of Mus musculus with 2 samples.

Results

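Dermal fibroblast lineage and fascia markers were followed in skin wounds of WT and PU.1-/- pups. The group was set by name and holds 10 genes, all of which were found among the 24346 gene symbols of each library. Pi16, Dpp4, Clec3b and Ly6a mark fascia or progenitor fibroblasts, Dlk1 marks the reticular dermis, and En1, Crabp1, Pdgfra, Lrrc17 and Thy1 mark other dermal fibroblasts. The wounds were made in the back skin of 1-day-old C57BL/6J littermates and harvested at 24 h. The WT group carried a normal Spi1 gene, which encodes the blood cell transcription factor PU.1, and the PU.1-/- group lacked PU.1 in the whole body. Each group was 1 mRNA library of whole wound tissue, with no replicate. The methods call the wounds incisional and the submitted design text calls them excisional, and neither states how many pups were pooled.

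The dermis holds fibroblasts of several kinds. Papillary fibroblasts lie under the epidermis, reticular fibroblasts lie deeper and make most of the collagen, and fascia fibroblasts lie in the loose sheet below the skin. Fibroblasts that carry Pi16 and Dpp4 are known as a progenitor pool around vessels and in the fascia, and fascia fibroblasts are known to move into wounds of the back skin. In tissue of many cell types, fewer cells of a type and less RNA per cell cannot be told apart.

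WT had an estimated 13804961 fragments and PU.1-/- had 15861299, read from the steps of the low values. Spi1 stood at 35.4 FPKM in WT against 1.45 FPKM in PU.1-/-. FPKM counts the fragments of a gene per kilobase of its transcript, scaled to the depth of the library. Of 10 macrophage markers, 10 were at least 2-fold lower in PU.1-/-, with a summed level of 910 FPKM in WT against 6.59 FPKM in PU.1-/-, and Tyrobp, C1qa, C1qb, C1qc and Adgre1 were listed at 0 there. The libraries also differed in genes of the sex chromosomes. Xist was listed at 0 in WT and at 9.48 FPKM in PU.1-/-, while Ddx3y, Eif2s3y, Kdm5d and Uty, at 2.16 to 38.5 FPKM in WT, were listed at 0 in PU.1-/-. Genotype and sex cannot be told apart with 1 library each. Broad fibroblast genes were abundant in both, led by Col3a1, a fibrillar collagen chain, at 1042 and 1110 FPKM.

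All 10 markers were detected above 1 FPKM in both wounds. Since FPKM is scaled by length, levels can be ordered between genes. In WT the order was Ly6a at 257 FPKM, Thy1 at 114 FPKM, Dlk1 at 90.5 FPKM, Pdgfra at 61.3 FPKM, Clec3b at 34.6 FPKM, Crabp1 at 33.0 FPKM, Pi16 at 19.9 FPKM, Lrrc17 at 10.5 FPKM, En1 at 4.43 FPKM and Dpp4 at 2.73 FPKM. Clec3b and Crabp1 were the single pair of neighbours whose counting intervals overlapped in WT. In PU.1-/- the order differed at 1 place, where Crabp1 (23.9 FPKM) stood above Clec3b (16.4 FPKM), and their intervals did not overlap. There the neighbours that overlapped were Lrrc17 (5.20 FPKM) and En1 (4.33 FPKM). The summed level of the 10 was 628 FPKM in WT against 646 FPKM in PU.1-/-, so that the sum hid opposite differences. The 4 fascia and progenitor markers summed to 315 and 252 FPKM, and the 6 others to 314 and 394 FPKM. Ly6a outweighed the other 3 genes of the first sum.

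**Figure D1:**
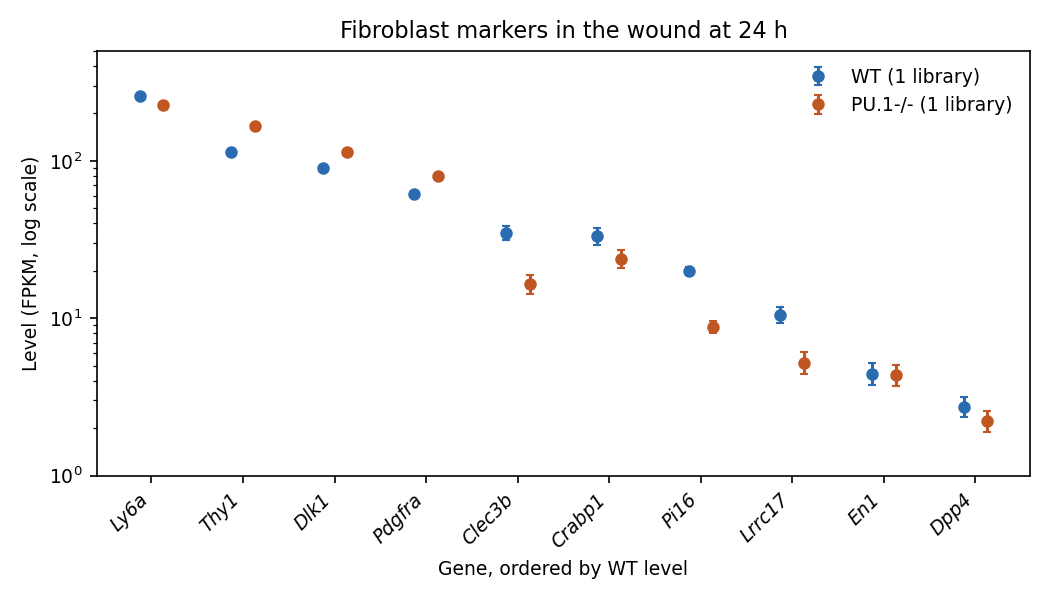
Levels of the 10 markers in FPKM on a log axis, ordered by WT level. Points are the values of 1 library per genotype and bars are 95% counting intervals. Pi16, Clec3b and Lrrc17 lie lower in PU.1-/-, while Thy1, Dlk1 and Pdgfra lie higher.

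Of the 10 markers, 3 were at least 2-fold lower in PU.1-/- and 0 were at least 2-fold higher. Over all genes listed, 4.34% were at least 2-fold lower and 2.32% higher. Among genes of 2 to 300 FPKM in WT, a range that holds the 10 markers, 3.90% were lower and 0.802% higher. At 1.5-fold 3 markers were lower and 0 higher, beside 7.67% and 5.79% of all genes, and at 3-fold 0 were lower and 0 higher, beside 2.80% and 0.616%. The 3 genes were already known to be lower when the markers were chosen, so the count is not independent evidence. Of the 10 ratios 7 were below 1 and 3 above 1, and the median log2 ratio was −0.25, beside 0.00 for the 12443 genes of at least 1 FPKM in both libraries. No test across animals can be made with 1 library per genotype. Intervals in parentheses after a ratio are at 95% (exact binomial) and cover counting error only.

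**Figure D2:**
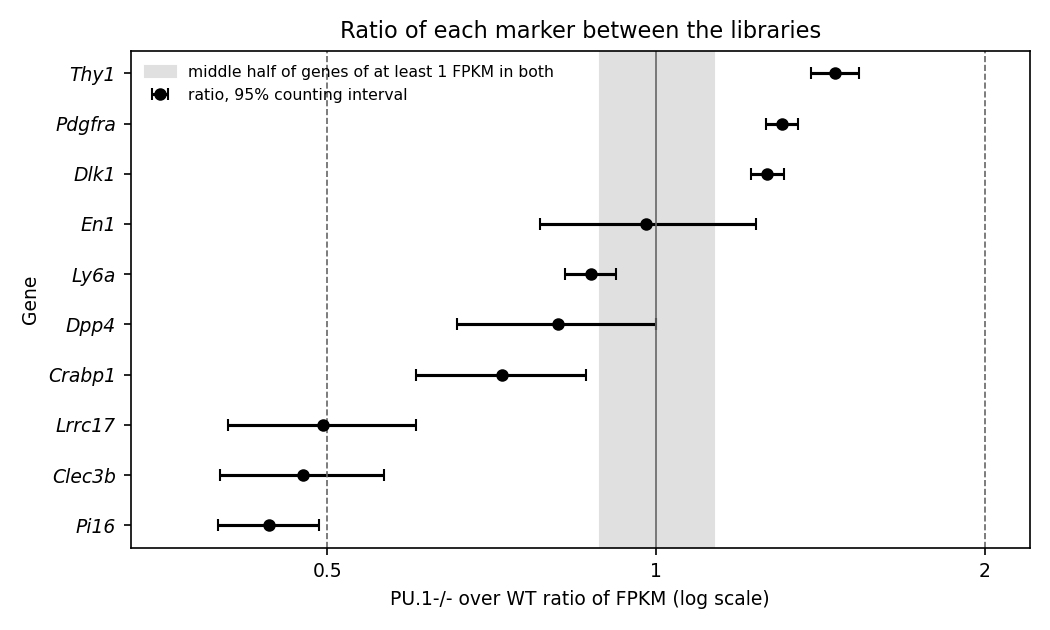
PU.1-/- over WT ratio of FPKM for each marker on a log axis, with 95% counting intervals. The grey band is the interquartile range of genes of at least 1 FPKM in both libraries, and dashed lines mark 2-fold. Pi16, Clec3b and Lrrc17 lie left of the lower line, and Thy1, Pdgfra and Dlk1 lie right of the band.

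Pi16, a secreted or membrane-anchored protein of the CAP family and a marker of progenitor fibroblasts, had 19.9 FPKM in WT against 8.79 FPKM in PU.1-/-. About 1042 and 529 fragments stood behind these levels, and the ratio was 0.442 (0.397 to 0.491). Clec3b, which encodes tetranectin, a secreted lectin that binds plasminogen, had 34.6 and 16.4 FPKM. Its ratio was 0.475 (0.398 to 0.564), from about 378 and 206 fragments. Lrrc17, a secreted leucine-rich repeat protein known to restrain osteoclast formation, had 10.5 and 5.20 FPKM. Its ratio of 0.496 (0.405 to 0.603) lay at the limit of the 2-fold rule, and with both libraries scaled to the same FPKM sum it was 0.512 and no longer past the limit. For Pi16 alone the whole interval lay below 0.5, and for each of the 3 it lay below 1.

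These 3 genes were set apart by their ratios, so that like ratios among them are in part given by the 2-fold limit. The ratio of Pi16 was 0.930 times that of Clec3b (0.760 to 1.14) and 0.891 times that of Lrrc17 (0.712 to 1.12), and the ratio of Clec3b was 0.958 times that of Lrrc17 (0.735 to 1.25). No difference among them was therefore detectable at this depth. Pdgfra, a receptor of most dermal fibroblasts, was itself higher in PU.1-/- (61.3 and 80.0 FPKM), which lowers shares of it there. Expressed as a share of Pdgfra, Pi16 stood at 32.4% in WT and 10.99% in PU.1-/-. Clec3b stood at 56.4% and 20.5% of the Pdgfra level and Lrrc17 at 17.1% and 6.51%. As a share of Col1a1, a chain of type I collagen, Pi16 stood at 5.68% and 2.28%, Clec3b at 9.87% and 4.27%, and Lrrc17 at 2.99% and 1.35%. Vim, the intermediate filament of mesenchymal cells, was itself lower in PU.1-/- (971 and 744 FPKM), and against it the shares differed less and none by 2-fold. Pi16 stood at 2.05% and 1.18% of the Vim level, Clec3b at 3.56% and 2.21%, and Lrrc17 at 1.08% and 0.699%.

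The remaining fascia and progenitor markers differed less. Ly6a, which encodes the surface antigen Sca-1, had the highest level of the 10, with 257 and 224 FPKM and a ratio of 0.872 (0.826 to 0.920). Dpp4, a surface protease that trims chemokines and is known as CD26, was the lowest of the 10, with 2.73 and 2.22 FPKM. Its ratio was 0.813 (0.658 to 1.0) from about 191 and 178 fragments, so that a difference was not detectable at this depth. The ratio of Dpp4 was 0.932 times that of Ly6a (0.749 to 1.16). Pi16 and Dpp4, which mark the same progenitor cells, differed beyond counting error, since the ratio of Pi16 was 0.543 times that of Dpp4 (0.430 to 0.690). Within the 4 fascia and progenitor markers, all ratios were below 1, 2 passed 2-fold and the median log2 ratio was −0.69.

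Ly6a belongs to a family of close copies, and Ly6a reads could be divided between them. Of its 881 windows of 75 nt, the read length, 21 (2.38%) also occur in Ly6c1 or Ly6i. Ly6c1 had 88.6 and 79.2 FPKM, a ratio of 0.894 (0.809 to 0.987), and Ly6e had 93.8 and 66.3 FPKM, a ratio of 0.706 (0.668 to 0.748). Ly6c2, which marks monocytes, had 25.6 FPKM in WT against 0.107 FPKM in PU.1-/-, where about 1 fragment was seen, a ratio of 0.00417 (9.97e-05 to 0.0223). Ly6i stood at 0.325 FPKM in WT and was listed at 0 in PU.1-/-. Ly6a is also induced by interferon and carried by endothelium. Of 8 interferon-stimulated genes, 0 were at least 2-fold lower and 1, Ifit3, was at least 2-fold higher, at 3.02 and 7.02 FPKM (0 with a pseudocount of 1 FPKM). The ratio was below 1 in 2 and above 1 in 6. Isg15, the most abundant, stood at 28.9 and 29.7 FPKM. Irf7, named after its values were seen, had 22.5 and 11.6 FPKM, a ratio of 0.514 (0.451 to 0.585). With both libraries scaled to the same sum of broad fibroblast genes, 1 of the 8 was at least 2-fold lower. Endothelial markers had a summed level of 238 and 262 FPKM. The part of these cells and genes in the Ly6a level was not tested.

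Thy1, Pdgfra and Dlk1 lay in the other direction, and none passed 2-fold. Thy1, the surface glycoprotein CD90, had 114 and 166 FPKM and the highest ratio of the 10, 1.46 (1.39 to 1.53). Pdgfra, the receptor for platelet-derived growth factor on dermal fibroblasts, had 61.3 and 80.0 FPKM, a ratio of 1.30 (1.26 to 1.35). Dlk1, a membrane protein related to Notch ligands that is known to hold back fat cell formation, had 90.5 and 114 FPKM, a ratio of 1.26 (1.22 to 1.31). Several transcripts are annotated for Pdgfra and Dlk1, and with the shortest one the intervals widened to 1.21 to 1.40 and 1.17 to 1.36. The ratios of Dlk1 and Pdgfra differed by less than counting error, at 0.970 (0.924 to 1.02). Thy1 was above both, since the ratio of Dlk1 was 0.867 times that of Thy1 (0.815 to 0.922) and the ratio of Pdgfra was 0.893 times that of Thy1 (0.841 to 0.95).

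Other cells carry these genes too. T cells carry Thy1 and Dpp4, and of 10 T cell markers 9 were listed, with a summed level of 8.40 FPKM in WT against 1.11 FPKM in PU.1-/-. Of these, 5 were at least 2-fold lower, against 1 with a floor of 1 FPKM and 3 with a pseudocount of 1 FPKM. Cd3d, Cd3e and Cd3g were listed at 0 in PU.1-/-, where 8 were at 0 against 2 in WT. Nerves carry Thy1 as well, and the 8 Schwann cell markers summed to 65.9 and 90.3 FPKM, with 8 of 8 ratios above 1. Muscle precursors carry Dlk1, and the 10 skeletal muscle markers summed to 8825 and 15038 FPKM, with 10 of 10 ratios above 1 and 3 past 2-fold (1 with both libraries scaled to the same sum of broad fibroblast genes). Those 3 were Myog, a regulator of muscle differentiation, at 22.1 and 66.6 FPKM, Myh3, the embryonic myosin, at 17.8 and 36.5 FPKM, and Myh8, the perinatal myosin, at 294 and 591 FPKM. The part of T cells, nerve and muscle in the levels of Thy1, Dpp4 and Dlk1 was not tested.

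En1 and Crabp1 completed the group. En1, a homeobox factor whose embryonic activity marks the fibroblast lineage of back skin that forms scars, had 4.43 and 4.33 FPKM. Its ratio was 0.979 (0.782 to 1.23) from about 148 and 167 fragments, and it went to 1.01 with both libraries scaled to the same FPKM sum, so no direction can be given. Crabp1, which binds retinoic acid in the cytoplasm and is known from dermal cells of the upper dermis and hair follicle, had 33.0 and 23.9 FPKM. Its ratio of 0.722 (0.603 to 0.863) did not pass 2-fold. Its relative Crabp2 stood at 128 and 140 FPKM, a ratio of 1.09 (1.01 to 1.17). Of 15 retinoid genes 2 were at least 2-fold lower and 0 higher, with a median log2 ratio of −0.12. The lower ones were Aldh1a1, an enzyme that makes retinoic acid, at 2.93 and 1.27 FPKM, and Stra6, a retinol transporter named after its values were seen, at 0.326 and 0.0981 FPKM from about 13 and 4 fragments. The count of lower genes was 1 with a floor of 1 FPKM and 0 with a pseudocount of 1 FPKM.

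**Figure D3:**
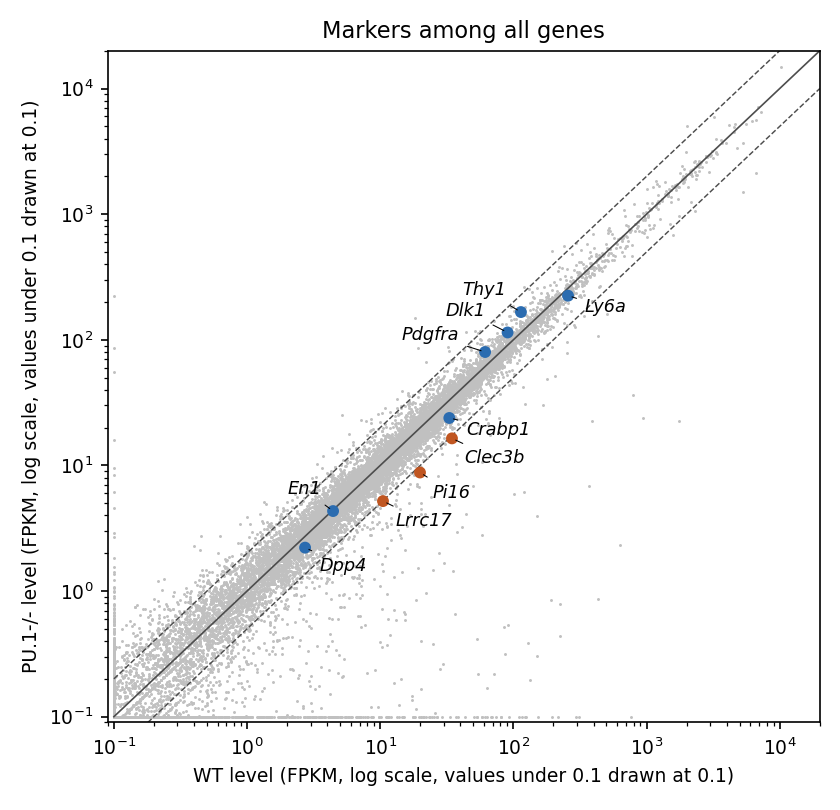
WT level against PU.1-/- level in FPKM for all genes listed (grey), on log axes, with values under 0.1 FPKM drawn at 0.1. The solid line marks equal levels and dashed lines mark 2-fold. Pi16, Clec3b and Lrrc17 (orange) lie below the lower dashed line, and the other 7 markers (blue) lie between the dashed lines.

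The genes lie on GRCm38, the assembly of mm10, as annotated by GENCODE. Pi16 spans 29317680 to 29330593 of chromosome 17, Clec3b 123150946 to 123157432 of chromosome 9 and Lrrc17 21543559 to 21575904 of chromosome 5, each on the plus strand. The transcripts used here have 7 exons in Pi16, 3 in Clec3b and 4 in Lrrc17. Lrrc17 lies within the span of Fbxl13, which is read from the opposite strand and stood at 0.0931 and 0.108 FPKM. Of the windows of 75 nt of Lrrc17, 0.385% also occur in Bc1, which was listed at 0 in both libraries. No such shared window was found for Pi16, Clec3b, Dpp4, Dlk1, En1, Crabp1, Pdgfra or Thy1. The library kit keeps the strand of the RNA, and whether the counting used it is not given in the sources used here.

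Promoters are shown because PU.1 is the factor that was removed. RefSeq promoter sequences of GRCm38.p6 were matched for 7 of the 10 markers, and the 250 bases before each start were searched on both strands. No sequence was matched for Clec3b, Ly6a and Thy1, so these were not searched. The letters GAGGAAG, the core of the PU box that PU.1 binds, occur in 10.6% of all 32851 promoters. Among the 7 markers searched they occur in Pi16 and Dpp4, each time on the minus strand, where they read CTTCCTC. The match begins 78 bases before the start of the sequence used in Pi16 and 236 in Dpp4. Both genes also have annotated starts farther upstream, so these distances hold for the start used only. In Pi16 the searched window begins at 29318632, inside the annotated span of the gene, so its matches lie within that span. The window overlaps exons of other annotated transcripts of Pi16, so only the site is shown, with its flanking bases and the match in capitals:
Pi16 site: ggtactggcagCTTCCTCatcttacccaa
Pi16 was 2-fold lower while Dpp4 was not. Lrrc17 has no such letters in its window, which holds TATAAA (in 12.4% of all promoters) and CCAAT (in 33.8%), the letters of the TATA and CCAAT boxes. In Lrrc17 these begin 166 and 102 bases before the start. CCAAT also occurs in Pi16, 64 bases before the start, and in En1, so that 3 of the 7 windows hold it. TATAAA also occurs in Dpp4, 227 bases before the start. Shown next are the Lrrc17 promoter at chr5:21543277-21543526, plus strand, and the part of the Dpp4 promoter outside its annotated transcripts at chr2:62412316-62412481, minus strand, with these letters in capitals:
Lrrc17 promoter: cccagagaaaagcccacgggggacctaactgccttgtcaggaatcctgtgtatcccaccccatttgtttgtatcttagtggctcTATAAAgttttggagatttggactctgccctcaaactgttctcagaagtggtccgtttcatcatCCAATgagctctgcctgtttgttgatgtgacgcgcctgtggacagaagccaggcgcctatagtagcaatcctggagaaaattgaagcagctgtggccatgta
Dpp4 promoter: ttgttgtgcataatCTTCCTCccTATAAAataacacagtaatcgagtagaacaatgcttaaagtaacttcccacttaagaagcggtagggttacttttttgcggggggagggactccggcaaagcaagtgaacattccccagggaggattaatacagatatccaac
The AP-1 letters TGANTCA, found in 6.75% of all promoters, occur among the 7 markers searched in En1. The GC box letters GGGCGG, in 32.7% of all promoters, occur among them in Crabp1. These are matches of letters and not measured binding, and whether PU.1 acts on any of these genes was not tested.

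Other genes of fascia and progenitor fibroblasts were read from a list of 16, none of them among the 10. Anxa3, a calcium-dependent membrane-binding protein, was at least 2-fold lower, at 12.9 and 4.89 FPKM, and 15 genes were not past 2-fold in either direction. The ratio was below 1 in 10 and above 1 in 6, and the median log2 ratio was −0.22. The most abundant, Dpt, a matrix protein of the dermis, stood at 111 and 137 FPKM. Named after their values were seen, Mfap5, a microfibril protein, had 64.5 and 34.3 FPKM, a ratio of 0.532 (0.484 to 0.585), and Cd55, a brake on complement, had 13.9 and 9.04 FPKM, a ratio of 0.649 (0.562 to 0.75). Cd34, another progenitor marker named in the same way, had 46.5 and 63.7 FPKM, a ratio of 1.37 (1.28 to 1.46). The list thus held low and high ratios side by side, as the 10 markers did.

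A list of papillary genes and a list of reticular and imprinted growth genes had medians above 0. Of 12 papillary genes 0 were lower and 1 was higher, Col13a1, a transmembrane collagen, at 0.777 and 1.88 FPKM, and 0 were higher with a floor or a pseudocount of 1 FPKM. Their median log2 ratio was 0.25, and Pdpn, the most abundant, stood at 81.7 FPKM in both. Of 15 genes of the reticular dermis and of imprinted growth control, 0 were past 2-fold, 12 had a ratio above 1 and the median log2 ratio was 0.29. Most of this list is imprinted genes, so its median does not describe the lower dermis. Its genes that are not imprinted, named after their values were seen, went both ways. They were Mgp at a ratio of 1.61 (1.22 to 2.12), Fmo1 at 0.837 (0.651 to 1.08) and Tnxb at 0.760 (0.705 to 0.819). H19, an imprinted RNA of fetal and neonatal tissue, was the most abundant at 4177 and 5121 FPKM. Meg3 and Rian, imprinted RNAs of the Dlk1 locus named for that position after their values were seen, stood at 6.50 and 7.499 FPKM and at 57.5 and 79.7 FPKM. Meg3 had a ratio of 1.15 (1.07 to 1.24), beside 1.26 (1.22 to 1.31) for Dlk1. Whether these ratios differ was not tested, since no ratio of ratios was taken for this pair. Rian had a ratio of 1.39, without an interval since no transcript length was found for it.

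Of 12 dermal papilla and condensate genes 1 was higher, Corin, a protease of the dermal papilla, at 0.464 and 1.31 FPKM, and 0 were lower. With a floor or a pseudocount of 1 FPKM, 0 of them were higher. The most abundant, Sox18, stood at 22.7 and 22.3 FPKM. Of 14 transcription factors of the dermis 0 passed 2-fold and the median log2 ratio was −0.01, with Prrx1, a factor of limb and skin mesenchyme, the most abundant at 33.3 and 37.2 FPKM. Of 14 broad fibroblast genes 0 passed 2-fold and the median was 0.11, with a summed level of 5057 and 5340 FPKM. In the pathways of single markers, the 6 genes of the PDGF pathway, which include the ligand Pdgfa at 24.2 and 27.0 FPKM, had 6 of 6 ratios above 1 and 0 past 2-fold. Of 14 Notch pathway genes 0 passed 2-fold and the median was −0.02, and Hes1, a Notch target, stood at 27.6 and 31.1 FPKM. Among 18 relatives of the markers, Ly6c2 was lower and R3hdml, named after its values were seen, stood past 2-fold at 0.0817 and 0.498 FPKM. R3hdml rests on about 1 and 7 fragments, its interval (0.783 to 275) holds 1, and it was not past 2-fold with a floor or a pseudocount of 1 FPKM. Fap, the closest relative of Dpp4, stood at 1.82 and 2.56 FPKM, a ratio of 1.41 (1.03 to 1.96).

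**Figure D4:**
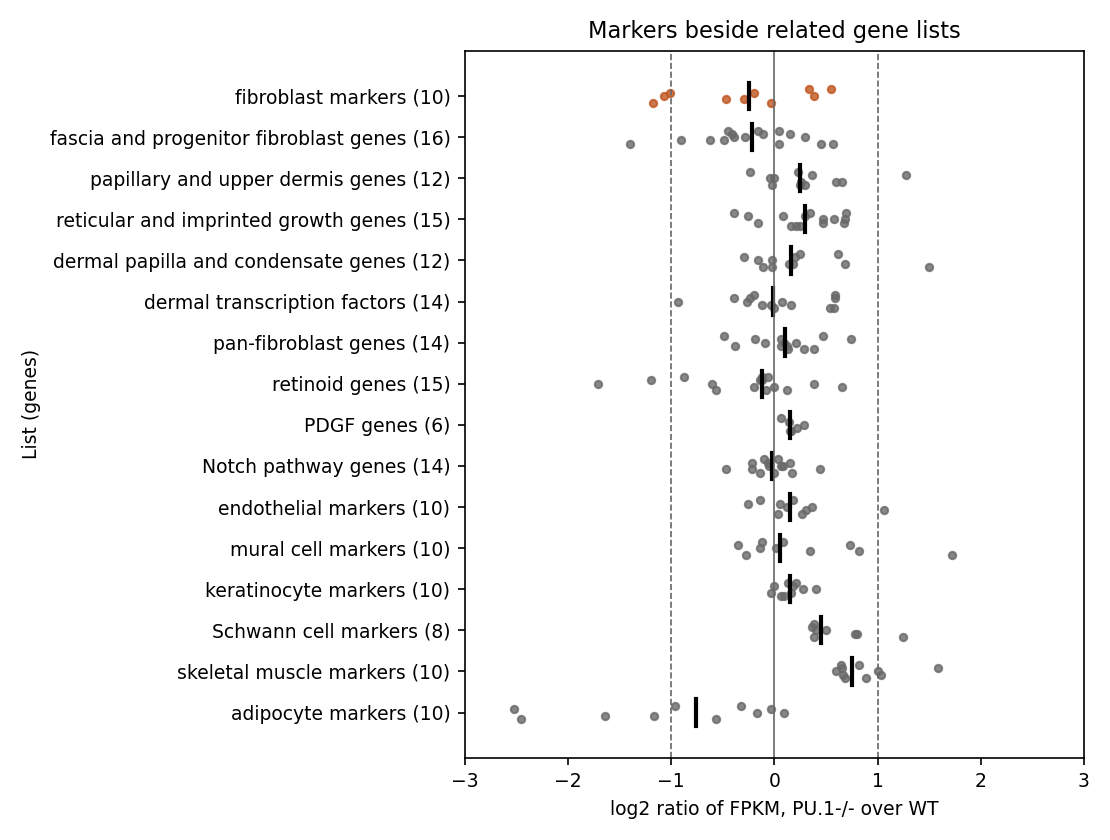
log2 ratio of FPKM, PU.1-/- over WT, for each gene (points) of the 10 fibroblast markers and of 15 related lists, with the median of each list (black bar). Dashed lines mark 2-fold. The markers spread from −1.18 to 0.54, fascia genes centre below 0, and muscle and Schwann cell markers lie above 0.

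Fat lies next to the fascia, and most of its markers had a ratio below 1. Of 10 adipocyte markers 4 were at least 2-fold lower and 0 higher, and the summed level was 4452 and 3499 FPKM. The ratio was below 1 in 9 and above 1 in 1, and the median log2 ratio was −0.76. Those lower were Retn, a secreted hormone, at 166 and 30.3 FPKM, Cfd, a complement protease of fat, at 504 and 162 FPKM, Plin1, a coat protein of lipid droplets, at 47.2 and 21.1 FPKM, and Lep, named after its values were seen, at 0.945 and 0.165 FPKM. Fabp4, the most abundant, stood at 3408 and 3037 FPKM, and Pparg and Lpl, named after their values were seen, had ratios of 1.07 (0.930 to 1.23) and 0.980 (0.945 to 1.02). Cidec and Adipoq, named in the same way, had ratios of 0.514 (0.472 to 0.559) and 0.676 (0.629 to 0.728). The part of fat, and of the depth of tissue taken, in the levels of Pi16, Clec3b and Lrrc17 was not tested.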

How the data were processed

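Total RNA of whole wounds was made into stranded mRNA libraries, 1 per genotype, and read as single-end reads of 75 nt. The authors mapped the reads to mm10 and deposited FPKM values made with the Cufflinks tools, which scale between libraries. The submitters' processing notes name TopHat2 2.1.1, Bowtie2 2.2.8, SAMtools 0.1.18 and Cuffdiff 2.2.1, while the paper's methods name Cuffnorm. The annotation is not given in the sources used here.

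All values here start from the deposited FPKM. Values below 0.1 were raised to 0.1, the PU.1-/- over WT ratio was taken, and genes past 2-fold were counted. Depth was found as the fragment number at which low values of genes with 1 RefSeq-linked GENCODE M21 transcript, taken as its length less 200 nt, are whole fragments. Within a tolerance of 0.1, 78.4% of 1197 values in WT and 79.6% of 1162 in PU.1-/- were whole. Fragments per gene were estimated with the longest such transcript, so an interval is too narrow where the authors used a shorter one. A length was found for 21696 genes (89.1%). A ratio of ratios has an exact conditional interval. Functions were checked on simulated libraries.

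The markers and lists were chosen with earlier results of these data known. Named genes were the 10 markers, the highest gene of each list, genes past 2-fold of at least 1 FPKM (at most 4 per direction), sex-linked genes and relatives. The lists also covered macrophages, T cells, endothelium, mural cells, keratinocytes, Schwann cells, muscle and fat. Alternatives changed the floor, pseudocount, scaling, filter and fold limit. Software was Python 3.11.15 with scipy 1.17.1, numpy 2.4.6, matplotlib 3.10.9 for plots and pandas 2.3.3.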

Additional observations from a re-analysis of the deposited data

How the results depend on the processing

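The ratios of the 10 markers were recomputed under 7 alternatives of floor, pseudocount, scaling and filter. Of 70 values 66 stayed within the counting interval, and the 4 others came with scaling to the same sum of broad fibroblast genes, at 0.826 for Ly6a, 1.20 for Dlk1, 1.23 for Pdgfra and 1.38 for Thy1. The changes of floor and the filter left every ratio as it was by construction, since all 10 markers lay above 1 FPKM in both libraries. Only the pseudocount and the scalings could move a value. Directions held except for En1, which went from 0.979 to 1.01 with the same FPKM sum. Pi16 ranged from 0.418 to 0.468, Clec3b from 0.4497 to 0.490 and Lrrc17 from 0.470 to 0.540. The count of lower markers was 2 in place of 3 with the same FPKM sum and with a pseudocount of 1 FPKM, since Lrrc17 left it (0.512 and 0.540), and 0 at 3-fold, where 2.80% of all genes were lower. The count was 3 at 1.5-fold, beside 7.67% of all genes. The median log2 ratio of the markers lay between −0.33 and −0.20. Over the 223 genes of 20 other lists, 11 were higher, against 4 with a pseudocount of 1 FPKM, 34 at 1.5-fold and 4 at 3-fold. Of the same genes 27 were lower, against 21 with a floor of 1 FPKM, 35 at 1.5-fold and 23 at 3-fold. Among these 27 were 10 macrophage markers, 5 T cell markers and 4 Y-linked genes. Fewer or more genes pass a stricter or looser limit by construction. No paired analysis was possible because each genotype is 1 library. Without replicates no spread between animals is known, and the fragments behind Dpp4 and En1 leave wide intervals, of 0.658 to 1.0 and 0.782 to 1.23.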

Other observations

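Markers of other structures of the wound were read from lists as well. Of 10 keratinocyte markers 0 passed 2-fold, and Krt14, a keratin of basal epidermis, stood at 4659 FPKM in WT against 5195 FPKM in PU.1-/-. Of 10 endothelial markers 1 was at least 2-fold higher, Vwf, a clotting protein stored in endothelium, at 2.82 and 5.90 FPKM, a ratio of 2.09 (1.84 to 2.38), while Pecam1, the most abundant, stood at 65.3 and 78.7 FPKM. Of 10 mural cell markers 1 was higher, Higd1b, a pericyte gene, at 1.25 and 4.10 FPKM, and Des, shared with the muscle list, stood at 396 and 699 FPKM. Of 8 Schwann cell markers 1 was higher, Cdh19, an adhesion protein of this lineage, at 1.24 and 2.95 FPKM, and Erbb3, the most abundant, stood at 33.3 and 43.6 FPKM. With a pseudocount of 1 FPKM 0 endothelial and 0 Schwann cell markers were higher. Acta1, the actin of skeletal muscle, stood at 3224 and 5955 FPKM. Of 9 listed T cell markers Il7r, at 3.86 FPKM in WT, was the most abundant and was listed at 0 in PU.1-/-.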
